A study of Homo sapiens with 8 samples.

Results

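Wnt ligands, Wnt antagonists and Wnt target genes were examined in Kyse510, an established human cell line of esophageal squamous cell carcinoma (ESCC). The genes were given by name, and 10 were named in all. They are the ligands WNT5A, WNT7A, WNT7B and WNT10A, the antagonists SFRP1, SFRP2, DKK1 and DKK3, and the targets AXIN2 and ASCL2. Of these, 9 were found in both deposited tables, which list 34164 genes between them, and SFRP1 was not analysed here. RNA-seq was performed on 8 libraries with 1 library per condition. In the first table, Kyse510 cells were treated for 2 days with DMSO vehicle, with 7 µM SP2509, which inhibits the histone demethylase LSD1, with 7 µM UNC0642, which inhibits the histone methyltransferase G9a, or with both inhibitors. The dose of each inhibitor in the combination is not stated separately. In the second table, Kyse510 cells carried an inducible hairpin against LSD1 (shLSD1) or against G9a (shG9a), had been selected with puromycin for 14 days, and were left without doxycycline or were given it for 2 days. The description speaks of stable clones and does not say whether a line is a single clone or a pool. A library with a nonsilencing hairpin and doxycycline was not analysed here, so doxycycline and the loss of the targeted enzyme cannot be told apart.

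Wnt proteins are secreted lipid-modified ligands that bind Frizzled receptors together with a co-receptor. In the canonical branch, LRP5 or LRP6 is the co-receptor, the complex that degrades β-catenin is inhibited, and β-catenin enters the nucleus and activates target genes with TCF/LEF factors. In the noncanonical branches, ROR or RYK receptors act on the cytoskeleton and on cell movement without β-catenin. Secreted frizzled-related proteins (SFRP) bind the ligands, whereas Dickkopf proteins (DKK) act on the co-receptors. In squamous epithelia, Wnt ligands come from the basal cells themselves and from the underlying stroma.

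Values are FPKM, in which the fragments of a gene are divided by gene length and library size. The totals, estimated from the steps between FPKM values, were 15662035 to 17889466 reads, and whole reads of each gene were derived from them. For each of the 9 genes the same gene length was used in both tables. Each interval below is a 95% interval of the reads, and it covers counting error only, in which copies made by PCR count as separate molecules. A ratio is the FPKM of a treated library over that of its own control, with an exact (Clopper-Pearson) interval. A gene was tested where 1 of the compared libraries reached 1 FPKM, and was called where the fold of FPKM + 1 was at least 1.3 and the two-sided exact binomial p of the reads, unadjusted, was under 0.05. Rose and fell are used for calls. That test sets 1 library against 1 other, so nothing here was checked in a second culture.

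The targeted genes and the cell type were checked first. KDM1A, which encodes LSD1, had 26.0 FPKM without and 6.29 FPKM with doxycycline in the shLSD1 line, and EHMT2, which encodes G9a, had 7.85 and 4.76 FPKM in the shG9a line. EHMT2 also had 11.1 FPKM with vehicle and 5.38 with both inhibitors. In the shG9a line, KDM1A had 26.4 FPKM without and 35.8 with doxycycline. All 7 squamous epithelial markers reached 1 FPKM in some library, and their summed level was 225 to 1030 FPKM, of which KRT5 alone had 74.6 to 734. KRT6A was at 0.676 to 0.819 FPKM with vehicle, in both uninduced lines and in the induced shLSD1 line. KRT14 was at 1.1 to 1.93 FPKM in the same libraries. Of 6 fibroblast markers, COL1A1 and COL3A1 reached 1 FPKM while COL1A2, DCN, LUM and PDGFRB did not, and the sum was 3.23 to 6.96 FPKM. Of 6 endothelial and blood cell markers, CDH5 and VWF reached 1 FPKM while PECAM1, PTPRC, CD3E and CD68 did not, and the sum was 3.56 to 14.6 FPKM. CDH5, an endothelial cadherin, had 3.28 FPKM with vehicle and 11.8 with both inhibitors, and 5.21 without and 14.0 with doxycycline for shLSD1. The squamous factor SOX2 had 18.3 FPKM with vehicle and 0.313 with SP2509. Without and with doxycycline, SOX2 had 5.24 and 20.1 FPKM for shLSD1, and 5.99 and 38.8 FPKM for shG9a. TP63 had 79.1 FPKM with vehicle, 127 with SP2509 and 18.3 with both inhibitors. From vehicle to SP2509, KRT5 went from 427 to 734 FPKM, CDH1 from 65.2 to 122, KRT14 from 1.93 to 8.67 and KRT6A from 0.676 to 6.56. DSG3 had 28.6 FPKM with vehicle and 26.9 with SP2509. The part of these markers in the results was not tested. As RNA of whole cultures was sequenced, fewer cells that express a gene and less of its RNA per cell cannot be told apart. The 2 uninduced lines differed little from each other, since 3.52% of 12449 tested genes were called in either direction between them, WNT5A and ASCL2 among these.

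The members fell into 3 levels. WNT5A, WNT7B, WNT10A and DKK1 were at 1 FPKM or above in all 8 libraries. WNT7A reached 1 FPKM in 4 libraries and ASCL2 in 1 library. SFRP2, DKK3 and AXIN2 stayed below 1 FPKM throughout, and their highest values were 0.204, 0.622 and 0.0874 FPKM, respectively.

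Of the 10 members, 5 were matched in the RefSeq promoter table used here (GRCh38.p14), which gives 250 bases before and 50 bases after 1 start site per gene. The windows of WNT5A, WNT10A, WNT7A and DKK1 are shown, since these members were called in most comparisons. The letters bound by TCF/LEF factors were searched on both strands, as CTTTG followed by 2 bases that are each A or T, and capitals mark a match. The WNT5A window is at chr3:55487257-55487556 (minus strand), the WNT10A window at chr2:218880602-218880901 (plus strand), the WNT7A window at chr3:13880022-13880321 (minus strand) and the DKK1 window at chr10:52314031-52314330 (plus strand).
WNT5A: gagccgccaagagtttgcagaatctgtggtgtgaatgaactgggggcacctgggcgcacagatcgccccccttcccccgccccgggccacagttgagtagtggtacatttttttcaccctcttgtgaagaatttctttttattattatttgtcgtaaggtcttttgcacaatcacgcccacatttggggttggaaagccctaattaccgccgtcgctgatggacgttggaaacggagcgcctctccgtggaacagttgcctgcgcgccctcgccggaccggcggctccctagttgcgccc
WNT10A: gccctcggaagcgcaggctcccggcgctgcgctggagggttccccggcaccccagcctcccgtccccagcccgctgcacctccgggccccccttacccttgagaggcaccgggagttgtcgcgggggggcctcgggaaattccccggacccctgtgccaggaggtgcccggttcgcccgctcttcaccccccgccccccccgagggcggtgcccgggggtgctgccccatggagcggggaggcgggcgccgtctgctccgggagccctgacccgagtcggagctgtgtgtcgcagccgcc
WNT7A: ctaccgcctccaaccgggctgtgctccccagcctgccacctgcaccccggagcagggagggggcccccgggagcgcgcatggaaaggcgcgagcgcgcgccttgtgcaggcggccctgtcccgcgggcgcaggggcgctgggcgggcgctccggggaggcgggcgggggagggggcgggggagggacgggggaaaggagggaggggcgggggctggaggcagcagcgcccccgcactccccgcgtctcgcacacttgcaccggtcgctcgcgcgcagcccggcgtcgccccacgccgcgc
DKK1: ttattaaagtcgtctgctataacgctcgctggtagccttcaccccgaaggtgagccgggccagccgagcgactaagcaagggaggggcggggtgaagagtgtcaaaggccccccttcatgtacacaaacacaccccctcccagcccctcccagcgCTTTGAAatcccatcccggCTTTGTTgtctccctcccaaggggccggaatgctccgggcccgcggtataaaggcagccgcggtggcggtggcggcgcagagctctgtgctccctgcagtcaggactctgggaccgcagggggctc
The DKK1 window held 2 matches, 95 and 76 bases before the start site, and the WNT5A, WNT10A, WNT7A and SFRP2 windows held 0. A match was found in 13.8% of all 35116 windows of this length. The WNT7A window was the richest of these in CG dinucleotides, with 40 against a median of 14.0 over all windows, and WNT10A had 30, WNT5A 21, DKK1 20 and SFRP2 15. The WNT5A and WNT10A windows lie within the gene spans given below, so they are not upstream of the outermost start of these genes. These letters describe the sequence and do not show that a factor binds there.

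WNT5A encodes a ligand of the noncanonical branch. The gene (ENSG00000114251) lies on chromosome 3 from 55465715 to 55490539 in GRCh38. WNT5A fell in all 5 comparisons, of which the 3 with inhibitors share the vehicle library. It had 29.3 FPKM with vehicle (3395 reads), 1.44 with SP2509 (189 reads), 14.1 with UNC0642 (1870 reads) and 2.76 with both inhibitors (345 reads). No intervals of these 4 libraries overlapped, and SP2509 alone gave the lowest level. The level was 20.4 times lower than with vehicle in the SP2509 library (17.6 to 23.8), 10.6 times lower with both inhibitors (9.49 to 11.9) and 2.07 times lower with UNC0642 (1.96 to 2.20). With both inhibitors, WNT5A was 1.93 times the level with SP2509 alone (1.61 to 2.31).

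Among the hairpin libraries, WNT5A had 12.4 FPKM without and 8.27 FPKM with doxycycline for shLSD1, and 16.9 and 3.33 FPKM for shG9a. The level was lower by 1.5 times (1.39 to 1.62) in the shLSD1 line and 5.06 times (4.56 to 5.63) in the shG9a line. The larger fall was that of SP2509 among the single inhibitors and that of shG9a among the hairpins. The 2 uninduced lines themselves differed in WNT5A, by a ratio of 1.36 (1.27 to 1.45), an interval that overlaps that of the shLSD1 fall and not that of the shG9a fall. The antisense gene WNT5A-AS1 (chromosome 3 from 55487699 to 55488308, plus strand) lies within the span of WNT5A and starts 143 bases beyond the window printed above. From 6.77 FPKM with vehicle (53 reads), it was at 0.112 with SP2509 (1 read), 4.58 with UNC0642 (41 reads) and 0.711 with both inhibitors (6 reads). Doxycycline took it from 52 to 22 reads for shLSD1 and from 37 to 3 reads for shG9a. The WNT5A-AS1 level was thus lower in each treated library than in its control, as for WNT5A, though the few reads leave 53 and 41 close. The strand setting of the counting is not given in the sources used here, so reads of the overlapping stretch cannot be told apart.

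WNT10A encodes a canonical ligand known for its part in skin appendages and teeth. The gene (ENSG00000135925) lies on chromosome 2 from 218880363 to 218899581. WNT10A fell with each inhibitor and not in the hairpin lines. It had 18.5 FPKM with vehicle (988 reads), 4.76 with SP2509 (289 reads), 2.85 with UNC0642 (174 reads) and 1.34 with both inhibitors (77 reads). The 4 libraries were separate beyond their intervals, and the combination was the lowest. The ratio to vehicle was 0.257 (0.225 to 0.294) with SP2509, 0.154 (0.130 to 0.181) with UNC0642 and 0.0723 (0.0566 to 0.0912) with both. With both inhibitors, WNT10A was 3.56 times lower than with SP2509 alone (2.76 to 4.64) and 2.13 times lower than with UNC0642 alone (1.62 to 2.83). WNT10A rose in the shG9a line with doxycycline, from 16.2 FPKM (917 reads) to 24.8 FPKM (1464 reads), a ratio of 1.52 (1.40 to 1.66). For shLSD1 the level was 17.9 FPKM without and 21.6 FPKM with doxycycline, a ratio of 1.21 (1.11 to 1.31) that was short of the fold for a call.

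WNT7A encodes a ligand of epithelia that can act through β-catenin. The gene (ENSG00000154764) lies on chromosome 3 from 13816258 to 13880121. WNT7A was between 0.878 and 0.964 FPKM in the vehicle library and the 2 uninduced libraries, and was the only ligand among the members to rise with the inhibitors. It had 0.878 FPKM with vehicle (63 reads), 6.76 with SP2509 (551 reads), 5.33 with UNC0642 (437 reads) and 8.16 with both inhibitors (631 reads). All 3 treated libraries stood far above vehicle, at a ratio of 7.69 (5.92 to 10.2) for SP2509, 6.07 (4.65 to 8.04) for UNC0642 and 9.29 (7.16 to 12.2) for the combination. The combination was 1.21 times the level with SP2509 (1.08 to 1.36) and 1.53 times the level with UNC0642 (1.35 to 1.73). With doxycycline WNT7A rose from 0.898 FPKM (73 reads) to 2.46 FPKM (197 reads) in the shLSD1 line, a ratio of 2.74 (2.08 to 3.63). In the shG9a line it had 0.964 FPKM without and 0.340 FPKM with doxycycline (73 and 27 reads), a ratio of 0.353 (0.218 to 0.556). Both of these libraries were below 1 FPKM, so WNT7A was not tested there, and the exact binomial p of the reads was 1.07e-06.

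WNT7B encodes the close relative of WNT7A and was the most even of the 4 ligands. The gene (ENSG00000188064) lies on chromosome 22 from 45920362 to 45977129. The vehicle library had 32.9 FPKM (2602 reads), SP2509 had 29.2 (2625 reads), UNC0642 had 25.4 (2296 reads) and the combination had 20.3 (1731 reads). Without and with doxycycline it had 29.7 and 26.3 FPKM for shLSD1, and 27.6 and 25.4 FPKM for shG9a. All 5 ratios were under 1, from 0.617 (0.581 to 0.656) with both inhibitors to 0.922 (0.869 to 0.978) in the shG9a line, and WNT7B was called only with both inhibitors, where it fell. WNT7B was the highest of the 4 ligands in 8 of 8 libraries by FPKM, which is a level per length, although with doxycycline in the shG9a line its interval overlapped that of WNT10A (24.4 to 26.5 and 23.5 to 26.1 FPKM).

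**Figure D1:**
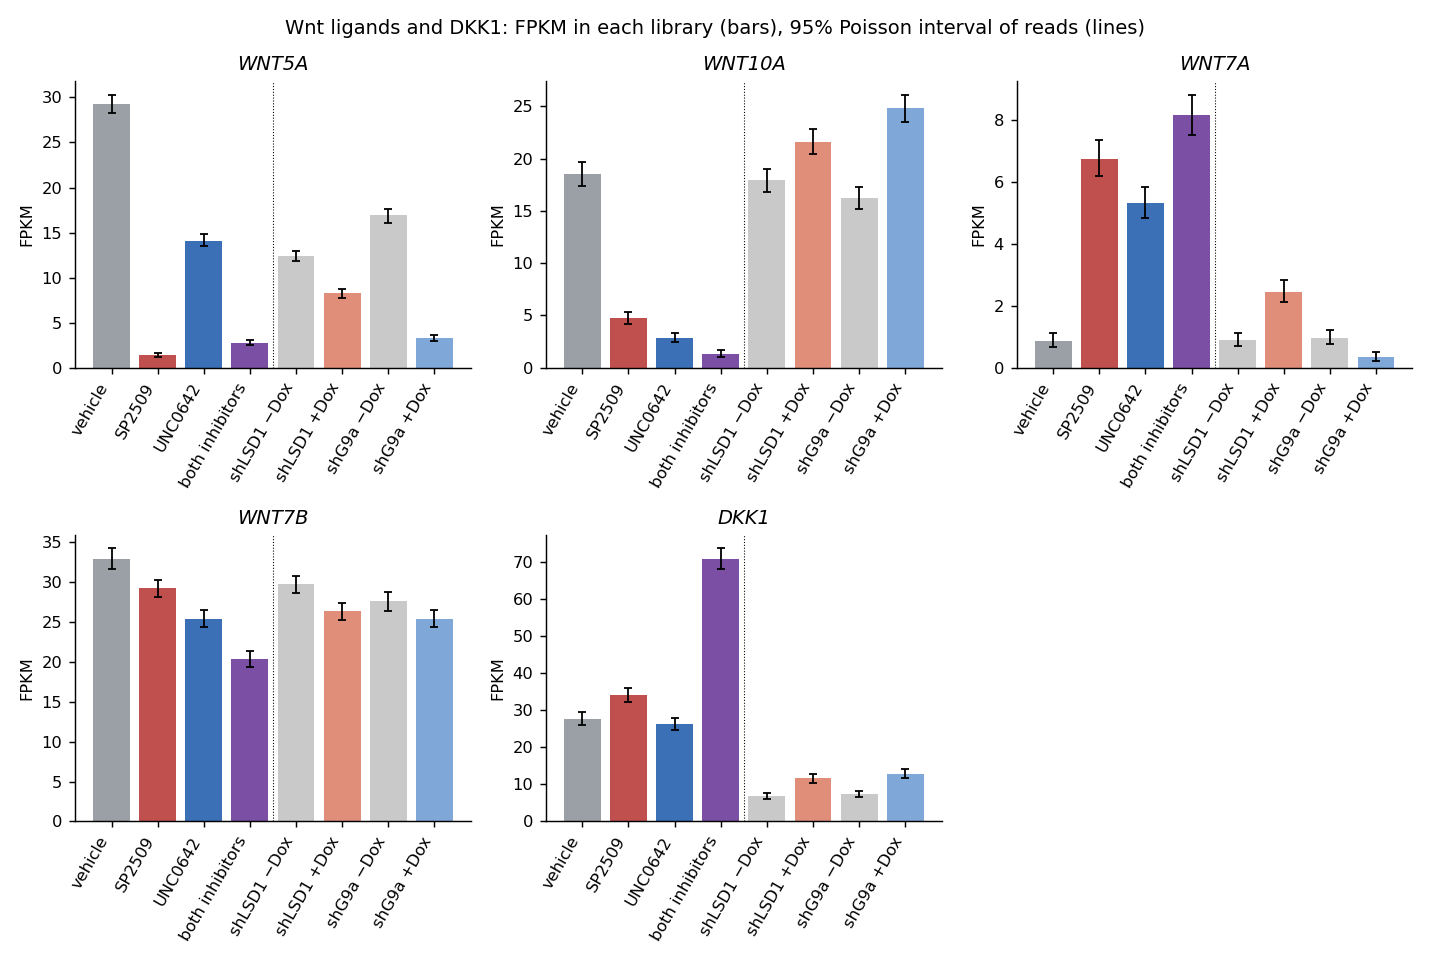
FPKM of the 4 ligands and DKK1 in each of the 8 libraries (bars, each axis from 0), with the 95% Poisson interval of the reads (lines). The dotted line parts the 2 tables. WNT5A and WNT10A were lower with each inhibitor, WNT7A was higher, WNT7B was between 20.3 and 32.9 FPKM throughout, and DKK1 was highest with both inhibitors at 70.8 FPKM.

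DKK1 encodes a secreted inhibitor that binds LRP5 and LRP6 and is itself a target of β-catenin in many cells. The gene (ENSG00000107984) lies on chromosome 10 from 52314296 to 52318042. DKK1 rose with both inhibitors together and in both hairpin lines. It had 27.7 FPKM with vehicle (956 reads), 34.1 with SP2509 (1338 reads), 26.3 with UNC0642 (1038 reads) and 70.8 with both inhibitors (2637 reads). The intervals of vehicle and UNC0642 overlapped, and the combination stood apart from the other 3 libraries. The ratio to vehicle was 2.56 (2.38 to 2.76) with both inhibitors, 1.23 (1.13 to 1.34) with SP2509 and 0.951 (0.870 to 1.04) with UNC0642, and only the first was called. With both inhibitors, DKK1 was 2.08 times the level with SP2509 alone (1.95 to 2.22) and 2.69 times the level with UNC0642 alone (2.50 to 2.90). With doxycycline DKK1 rose from 6.87 FPKM (269 reads) to 11.6 FPKM (447 reads) for shLSD1, a ratio of 1.69 (1.45 to 1.97). It also rose for shG9a, from 7.32 FPKM (267 reads) to 12.9 FPKM (492 reads), a ratio of 1.76 (1.51 to 2.05). The interval of the ratio between the uninduced lines included 1 (0.896 to 1.27). Vehicle was at a higher FPKM than any hairpin library, but the tables were made separately and this was not tested.

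DKK3 encodes a divergent Dickkopf protein, which is not a clear inhibitor of LRP5 and LRP6. The gene (ENSG00000050165) lies on chromosome 11 from 11963106 to 12009769. It had 0.366 FPKM with vehicle (29 reads), 0.622 with SP2509 (56 reads), 0.331 with UNC0642 (30 reads) and 0.234 with both inhibitors (20 reads). With shLSD1 it had 5 reads without and 23 with doxycycline, a ratio of 4.66 (1.73 to 15.7), and with shG9a 7 and 4 reads, a ratio of 0.546 (0.117 to 2.15). The interval of the ratio excluded 1 for SP2509 (1.07 to 2.76) and for the shLSD1 line, and for no other of the 5 comparisons. No library reached 1 FPKM, so DKK3 was not tested.

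SFRP2 encodes a secreted protein that binds Wnt ligands. The gene (ENSG00000145423) lies on chromosome 4 from 153780592 to 153789120. SFRP2 was counted from few reads in every library. The vehicle and SP2509 libraries had 0 reads each, UNC0642 gave 2 reads and the combination gave 7 reads (0.204 FPKM, with an interval from 0.0820 to 0.420). A floor of 3 reads was set for a count of 0, which is 0.0943 FPKM with vehicle and 0.0829 with SP2509. The 95% interval of 0 reads reaches further, to 0.116 and 0.102 FPKM. Against a vehicle level at that floor, the 7 reads are 2.16-fold higher. The exact 95% interval of the ratio, which also counts the error of the 7 reads, starts lower, at 1.34. The exact binomial p of 7 against 0 reads was 0.0161. For shLSD1 there were 0 reads without and 3 with doxycycline, and for shG9a 1 and 3 reads, differences within counting error (exact binomial p = 0.122 and 0.625). SFRP2 therefore stayed below 1 FPKM where it was counted at all, and did not enter the test.

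AXIN2 encodes a scaffold of the complex that degrades β-catenin and is among the most general targets of canonical Wnt signalling. The gene (ENSG00000168646) lies on chromosome 17 from 65528563 to 65561647. The vehicle library had 2 AXIN2 reads, the SP2509 and UNC0642 libraries had 0 each, and the combination had 1. There were 4 reads without and 8 with doxycycline for shLSD1, and 2 and 5 reads for shG9a. The 95% intervals of the counts of 0 reach 0.0396 FPKM with SP2509 and 0.0395 FPKM with UNC0642. A difference was not detectable at this depth in any of the 5 comparisons, where the smallest exact binomial p was 0.218.

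ASCL2 encodes a helix-loop-helix factor that is a Wnt target in intestinal stem cells. The gene (ENSG00000183734) lies on chromosome 11 from 2268495 to 2270952. ASCL2 fell in the shLSD1 line from 1.46 FPKM without doxycycline (48 reads) to 0.524 FPKM with it (17 reads), 2.78 times lower (1.57 to 5.16). With shG9a it had 26 and 28 reads, a ratio of 1.03 (0.581 to 1.83). The uninduced shG9a line was already lower than the uninduced shLSD1 line, by a ratio of 0.581 (0.346 to 0.956), so the starting levels differed in these libraries. With vehicle there were 12 reads, and there was 1 read with SP2509, 6 with UNC0642 and 1 with both inhibitors. The ratio to vehicle was 0.0733 with SP2509 (0.00171 to 0.495) and 0.0773 with both inhibitors (0.00181 to 0.523), and its width reflects the single read. For UNC0642 the interval included 1 (0.135 to 1.26).

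**Figure D2:**
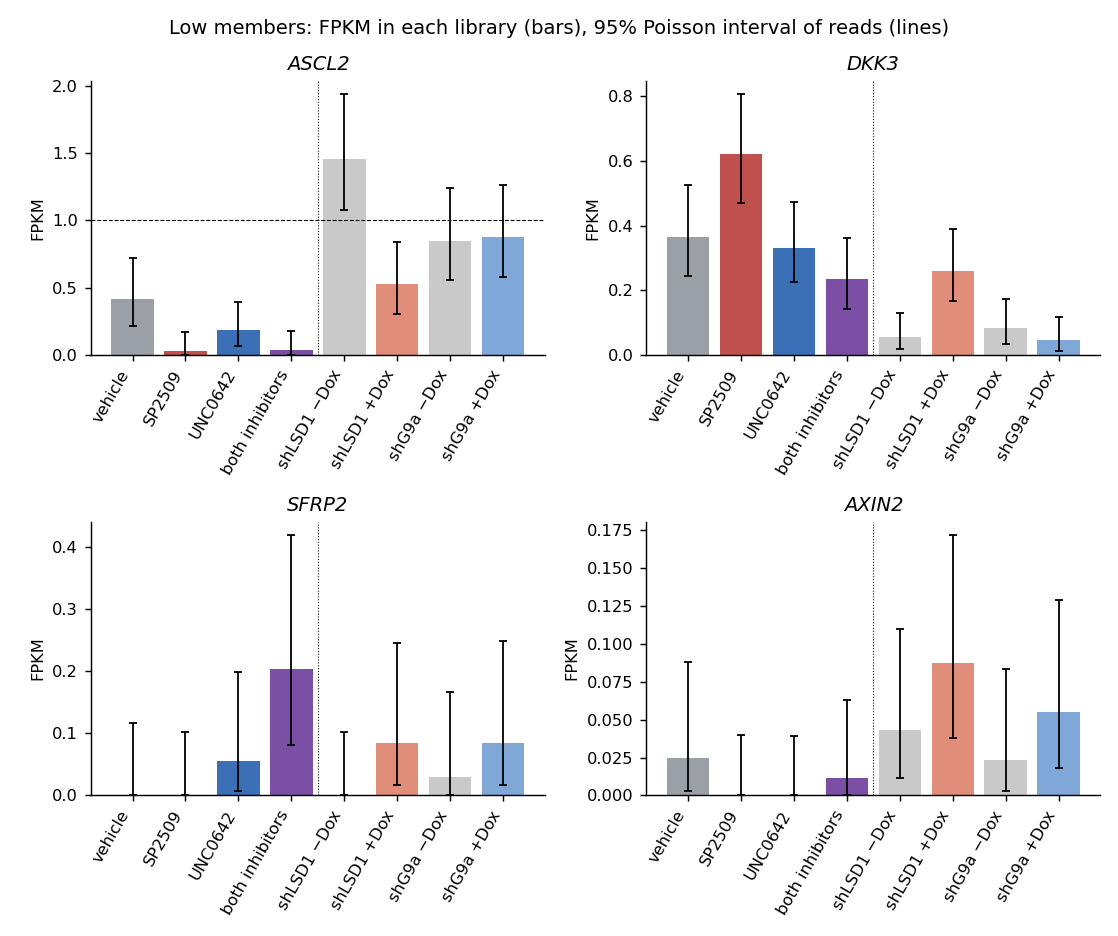
FPKM of ASCL2, DKK3, SFRP2 and AXIN2 in each of the 8 libraries (bars, each axis from 0 on its own scale), with the 95% Poisson interval of the reads (lines). The dashed line in the ASCL2 panel is 1 FPKM, which only the uninduced shLSD1 library passed, at 1.46 FPKM, and the other 3 genes stayed below it in all 8 libraries.

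By comparison, SP2509 gave 1 member up (WNT7A) and 2 down (WNT5A and WNT10A) of 5 tested, where 18.2% of all 13342 tested genes rose and 37.5% fell. UNC0642 gave the same calls of 5 tested, where 15.8% of 13244 genes rose and 14.0% fell. Both inhibitors together gave 2 up (WNT7A and DKK1) and 3 down (WNT5A, WNT7B and WNT10A) of 5 tested, where 29.0% of 13907 genes rose and 29.1% fell. The shLSD1 line gave 2 up (WNT7A and DKK1) and 2 down (WNT5A and ASCL2) of 6 tested, where 22.7% of 12970 genes rose and 10.4% fell. The shG9a line gave 2 up (WNT10A and DKK1) and 1 down (WNT5A) of 4 tested, where 30.0% of 13080 genes rose and 15.8% fell. ASCL2 entered the shLSD1 count only through the control at 1.46 FPKM, the 1 library where it reached 1 FPKM. That control passed the filter whatever the treated level. WNT7A entered the inhibitor and shLSD1 counts only through the treated library, so in these comparisons the filter could pass only a rise of WNT7A. The lower WNT7A level in the shG9a line was left out by the same filter. The median log2 fold change of the tested members was -0.17 with SP2509, -0.36 with UNC0642, -0.67 with both inhibitors, 0.04 for shLSD1 and 0.23 for shG9a, against -0.21, -0.01, -0.02, 0.13 and 0.18 over all tested genes. Among genes at 5 FPKM or above, doxycycline shifted the median by 0.11 for shLSD1 and 0.14 for shG9a on the log2 scale, and the inhibitors by -0.09 to 0.04. After each comparison was centred on that median, the share of all calls that were up went from 68.6% to 52.8% in the shLSD1 line and from 65.5% to 50.9% in the shG9a line. Centring moved 1 call of a member, since DKK1 with SP2509 then passed the fold.

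**Figure D3:**
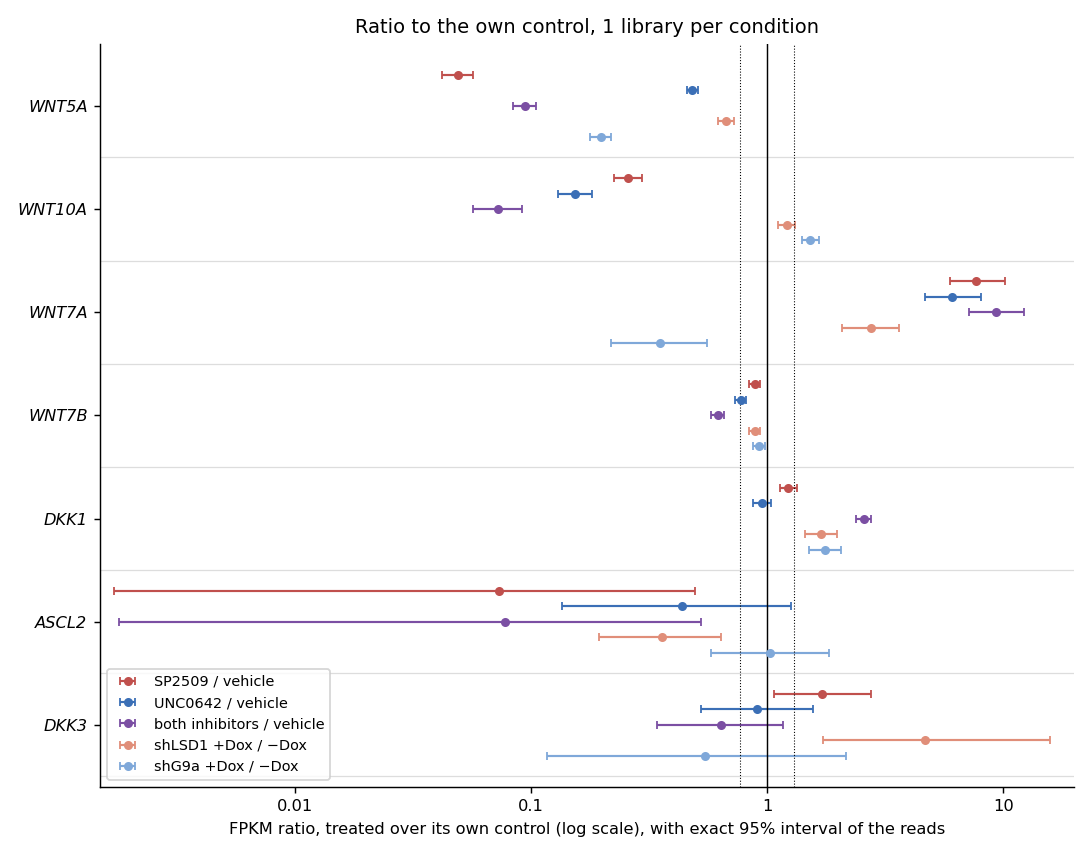
FPKM ratio of each treated library to its own control (points, log axis) with the exact 95% interval of the reads (lines) for 7 members in the 5 comparisons. The solid line is a ratio of 1 and the dotted lines are a fold of 1.3 in either direction, and the WNT5A points lie left of 1 in all 5 comparisons.

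WNT5A, WNT7B, WNT10A and DKK1 were also compared with 9439 genes at 1 FPKM or above in all 8 libraries by the Pearson r of log2(FPKM + 1) after the mean of each table was subtracted. The genes most like WNT5A over the 8 libraries were DCXR (r = 0.997) and PIR (r = 0.986), and those most like DKK1 were BYSL (r = 0.991) and ETV3 (r = 0.989). For WNT10A they were GMPR2 (r = 0.988) and KTN1-AS1 (r = 0.982), and for WNT7B they were STK16 (r = 0.989) and SNRPA (r = 0.985). An r of at least 0.9 was reached by 89 genes for WNT5A, 155 for DKK1, 73 for WNT10A and 126 for WNT7B. The 8 libraries share controls, and these values are a description of pattern only.

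The other genes of the pathway were taken from lists of ligands, receptors, antagonists, transducers, nuclear partners and targets, 92 genes beyond the members. Of these, 53 were tested with SP2509, and 9 rose and 20 fell (17.0% and 37.7%, against 18.2% and 37.5% of all tested genes). With UNC0642, 10 rose and 5 fell of 53 (18.9% and 9.43%, against 15.8% and 14.0%). With both inhibitors, 17 rose and 15 fell of 54 (31.5% and 27.8%, against 29.0% and 29.1%). With shLSD1, 9 rose and 9 fell of 54 (16.7% each, against 22.7% and 10.4%). With shG9a, 17 rose and 10 fell of 55 (30.9% and 18.2%, against 30.0% and 15.8%). The shares of all tested genes apply to each list below, and most lists hold few tested genes. The median log2 fold change of these genes was -0.14 with SP2509, 0.07 with UNC0642, 0.11 with both inhibitors, 0.06 with shLSD1 and 0.06 with shG9a.

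Among all ligands of the family, members included, 7 of 9 tested fell and 1 rose with SP2509 (77.8% and 11.1%, against 37.5% and 18.2% of all tested genes), at a median log2 fold change of -0.94. Those that fell beside WNT5A and WNT10A were WNT3, WNT4, WNT6, WNT9A and WNT10B. With UNC0642, 4 of 9 fell and 2 rose (median -0.36), and with both inhibitors 5 of 9 fell and 2 rose (median -0.67). WNT10B was called up with UNC0642, and neither WNT3 nor WNT10B was called with both inhibitors. The hairpin lines had 4 of 9 up and 1 down for shLSD1 (median 0.3) and 4 of 8 up and 2 down for shG9a (median 0.23). WNT7A is part of the up counts with each inhibitor, with both and for shLSD1. Its controls there were at 0.878 and 0.898 FPKM, so the filter could pass only a rise of it. In the shG9a line, where its level was lower, WNT7A was not tested. WNT4, a ligand of female reproductive tract and kidney development, fell from 11.2 FPKM with vehicle to 4.34, 2.74 and 1.27 FPKM with SP2509, UNC0642 and both, and from 20.6 to 4.77 FPKM with doxycycline for shG9a. WNT6, a canonical ligand of epithelia, had 63 reads with vehicle and 4, 8 and 3 reads with SP2509, UNC0642 and both, while it rose in both hairpin lines, from 36 to 107 reads for shG9a. WNT11, a noncanonical ligand, rose with doxycycline from 1.01 to 10.4 FPKM for shLSD1, a ratio of 10.3 (7.52 to 14.4), and from 1.11 to 5.34 FPKM for shG9a, a ratio of 4.82 (3.47 to 6.82). WNT9A rose by a ratio of 2.00 (1.70 to 2.37) and 2.14 (1.79 to 2.57) in these lines, but was called down with SP2509 and up with both inhibitors.

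Among the receptors and co-receptors, 7 of 12 tested fell and 1 rose with SP2509 (58.3% and 8.33%, against 37.5% and 18.2% of all tested genes), 1 fell and 2 rose of 12 with UNC0642, and 5 fell and 3 rose of 13 with both inhibitors. The splits were 2 up and 2 down of 12 in the shLSD1 line and 3 up and 3 down of 12 in the shG9a line. The Frizzled receptor FZD10 fell with doxycycline from 23.4 to 6.93 FPKM for shLSD1 and from 21.0 to 1.57 FPKM for shG9a, 13.4 times lower in the latter (10.8 to 16.8), but was called up with UNC0642. FZD8 rose from 0.412 FPKM with vehicle to 2.26 with UNC0642 and 3.06 with both inhibitors, but was called down in both hairpin lines. FZD8, RECK and FZD4 were below 1 FPKM with vehicle, so in the inhibitor comparisons the filter could pass only a rise of them. They are part of the receptor counts above, RECK with SP2509, FZD8 with UNC0642, and FZD8 and FZD4 with both inhibitors. FZD7 rose from 5.49 to 19.3 FPKM with both, but was called down with SP2509 alone. FZD6 fell with UNC0642 from 37.8 to 27.1 FPKM and was also called down with SP2509 and with both. LRP5, a co-receptor of the canonical branch, went up from 15.5 to 25.8 FPKM for shLSD1 with doxycycline, but was called down with both inhibitors.

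R-spondins act through LGR receptors on RNF43 and ZNRF3, ubiquitin ligases that remove Frizzled receptors from the cell surface. Of these genes, 2 of 5 tested fell with SP2509 (LGR4 and RSPO4). With UNC0642, ZNRF3 rose and LGR6 fell, and with both inhibitors LGR6 rose and LGR4, RNF43 and RSPO4 fell. With doxycycline, LGR4 rose in both hairpin lines and RSPO4 in the shG9a line, and 0 fell in either. Of the genes for Wnt secretion, WLS rose with SP2509, and 0 of 2 tested were called in each other comparison. Of the 15 genes in the list of antagonists, 3 were tested in each comparison, namely the secreted DKK1 and the DKK receptors KREMEN1 and KREMEN2, which are membrane proteins. KREMEN2 fell with SP2509, with both inhibitors and in the shLSD1 line. KREMEN1 fell from 3.83 to 1.3 FPKM with both inhibitors and was called up in the shG9a line.

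Of 15 cytoplasmic transducers tested in each comparison, 3 rose and 1 fell with SP2509, 2 rose and 1 fell with UNC0642, and 5 rose and 1 fell with both inhibitors. The splits were 2 up and 2 down in the shLSD1 line and 3 up and 3 down in the shG9a line. CSNK1E, a kinase that acts on Dishevelled, rose from 7.51 FPKM with vehicle to 19.2 with SP2509 and 14.2 with UNC0642, was also called up with both, and was called down in both hairpin lines. Of the nuclear partners, 2 rose and 3 fell of 8 tested with SP2509, 2 rose and 0 fell with UNC0642, and 3 rose and 2 fell with both inhibitors. In the hairpin lines 9 were tested, with 0 up and 2 down in the shLSD1 line and 4 up and 1 down in the shG9a line. The corepressor gene TLE1 had 8.24 FPKM with vehicle, 23.4 with SP2509 and 26.3 with both inhibitors. PYGO2, a coactivator of β-catenin, fell from 20.5 to 4.70 FPKM with SP2509, but was called up in the shG9a line. TCF7L1, a factor that mostly represses targets, fell with doxycycline from 3.88 to 1.16 FPKM for shLSD1 and was called down with both inhibitors, but was called up with SP2509 and in the shG9a line.

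The list of Wnt target genes, which includes DKK1, ASCL2 and AXIN2, moved in both directions. With SP2509, 2 of 7 tested rose and 1 fell, with UNC0642 3 rose and 0 fell, and with both inhibitors 5 rose (CCND1, CD44, DKK1, MYC and NKD2) and 1 fell (RNF43). Doxycycline gave 2 of 8 up and 3 down for shLSD1 and 2 up and 2 down for shG9a. ASCL2 was tested only for shLSD1, through its control, and was called down there. SP5 was tested only for shG9a and was called up there. MYC, a growth regulator with many inputs beside Wnt, rose from 137 to 697 FPKM with SP2509 and was also called up with both inhibitors, but fell with doxycycline, from 219 to 105 FPKM for shLSD1 and from 206 to 67.2 FPKM for shG9a. CD44, an adhesion receptor, rose from 45.1 to 103 FPKM with UNC0642 and was also called up with SP2509 and with both.

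**Figure D4:**
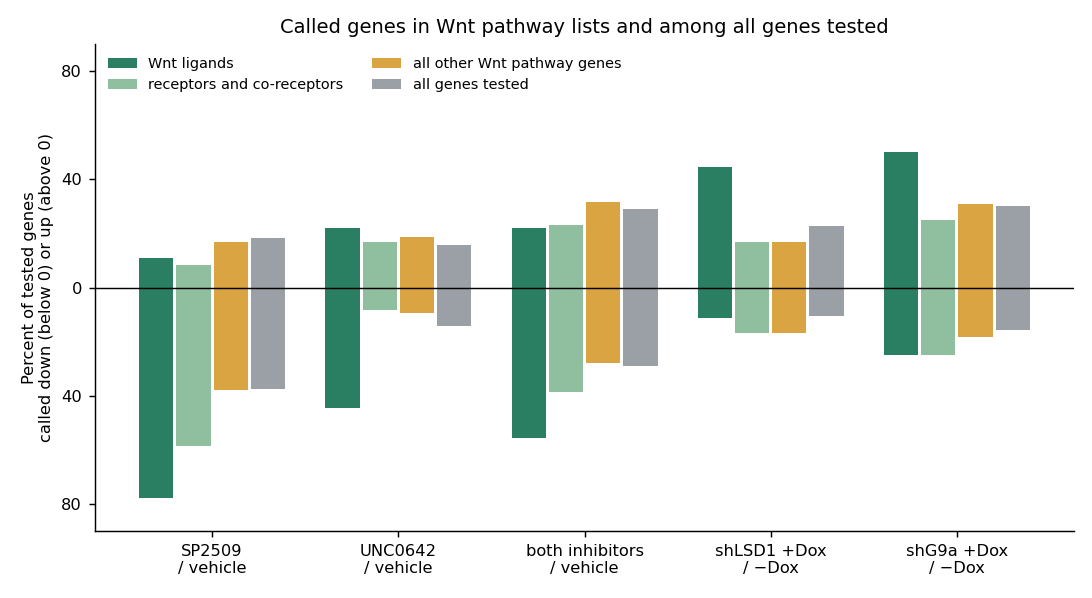
Percent of tested genes called up (above 0) or called down (below 0) in each of the 5 comparisons, for all Wnt ligands (8 or 9 tested), receptors and co-receptors (12 or 13 tested), the other Wnt pathway genes without the members (53 to 55 tested) and all genes tested. With SP2509, 77.8% of the ligands (7 of 9) and 37.5% of all genes were called down. The other pathway genes together were at 37.7%, and they include the ligands that are not members. The ligands called up include WNT7A with the inhibitors and for shLSD1, where the filter could pass only a rise of it. The same holds for RECK, FZD8 and FZD4 among the receptors called up with the inhibitors.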

How the data were processed

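The authors removed low-quality reads and adapters from paired-end 150-base RNA-seq reads, aligned the rest to GRCh38.87, and deposited 2 tables of FPKM values for 31582 and 28942 genes. The aligner, the counting tool and the strand setting are not given in the sources used here. Groups were taken from the sample titles.

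Library totals were read from the FPKM steps of single-exon genes, and the length of each other gene was the smallest that made its values whole reads, or a multiple of it (up to 4) that matched the other table or the GENCODE release 44 exon length. The reads summed to 99.8% to 100.02% of the totals. Each treated library was compared with its own control, by the fold of FPKM with a pseudocount of 1 and an exact binomial test (two-sided, scipy 1.17.1) on the reads. Replicate spread cannot be estimated from 1 library per condition. The members and lists were chosen with earlier results of these data known. The comparison of the uninduced lines, the ratios of the combination to each inhibitor and the motif search were added after the data were seen. All members were named, and of other pathway genes the called genes with the 3 largest rises and the 3 largest falls per comparison. Alternatives changed the pseudocount, filter, fold, centring, p adjustment, read estimate and control.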

Additional observations from a re-analysis of the deposited data

Results flagged for a closer look

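WNT7A was the only member whose change with doxycycline had opposite directions in the hairpin lines beyond counting error. On the log2 scale of FPKM + 1 it changed by 0.87 in the shLSD1 line and by -0.55 in the shG9a line, 1.42 apart. The difference was not tested, since each line has 1 library without and 1 with doxycycline, and both shG9a libraries were below 1 FPKM.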

How the results depend on the processing

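No direction of a call was reversed under the alternatives run. Of 333 values of single members under an alternative, 322 kept their call or stayed uncalled, 7 lost a call and 4 gained one. All 7 losses were at a fold of at least 2. Of 74 counts of members, 69 stayed within 1.5 times. At a fold of at least 2, 0 members rose and 0 fell in the shLSD1 line and 0 rose in the shG9a line, and WNT7B with both inhibitors also lost its call. Centring on the median gave 2 members up with SP2509, since DKK1 was added at 0.38. Without the filter on low values 2 members fell in the shG9a line, since WNT7A was added, and ASCL2 fell with SP2509 and with both inhibitors. The pseudocount of 0.1, the Benjamini-Hochberg adjusted p, no test of reads, the smallest gene length and the mean of both uninduced libraries changed no call of a member. Over all genes, a fold of at least 2 lowered the calls from 2433 up and 5003 down to 923 and 1607 with SP2509, from 2088 and 1856 to 510 and 293 with UNC0642, from 4032 and 4047 to 1662 and 1180 with both inhibitors, from 2945 and 1347 to 346 and 326 in the shLSD1 line, and from 3922 and 2064 to 548 and 692 in the shG9a line. Depth limits AXIN2 and SFRP2, which had at most 8 reads in a library. No paired analysis was possible because each condition has 1 library.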
